A study of Homo sapiens with 3 samples.

Results

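The 47 genes described here encode the machines that move newly made proteins into or across the membrane of the endoplasmic reticulum (ER) and process them as they arrive. They are the SEC61 channel and its partners (8 genes), the translocon-associated protein complex TRAP (4 genes), signal peptidase with signal peptide peptidase (6 genes), the oligosaccharyltransferase OST (12 genes), the ER membrane protein complex EMC (10 genes) and the GET route for tail-anchored proteins (7 genes). The genes were taken by name from the 58243 genes of the deposited tables, with earlier results of these data known. All 47 were found, and 46 reached a mean of 50 reads over the libraries. EMC10 did not, so ratios and counts below cover 46 genes.

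The libraries came from cells labelled LoVo, an established line from a human colorectal carcinoma. All of them carried a Tet-On short hairpin RNA, which is made only when doxycycline is present, against HRD1. HRD1, encoded by SYVN1, is the ubiquitin ligase at the core of ER-associated degradation. RNA was taken at day 0, and after 3 and 5 days of doxycycline at 1 µg/ml, with the stated aim of following ER stress as HRD1 is depleted. Each time is 1 library and no library had doxycycline without the hairpin, so the time, the drug, the hairpin and the library cannot be told apart. Spread between cultures is therefore unknown and p-values are not given, and every ratio compares libraries rather than conditions. In bulk RNA, fewer cells that express a gene and less RNA per cell cannot be told apart either.

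Most secreted and membrane proteins enter the ER through SEC61, a channel that opens sideways to release membrane segments. TRAP and OST sit beside the channel, and OST transfers a preassembled sugar chain from a lipid carrier to asparagines of the entering protein, while signal peptidase removes the targeting peptide. EMC and GET insert membrane segments that the SEC61 channel handles poorly, among them tail anchors, the single membrane segments at the far end of some proteins. Several genes of these machines are textbook targets of the unfolded protein response, the programme that enlarges the ER when misfolded proteins build up.

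SYVN1 itself had 1212 reads at day 0, 650 at day 3 and 709 at day 5. After normalisation, this left 0.543 of the day 0 amount at day 3 and 0.482 at day 5. The libraries held 21308785 to 25754188 reads assigned to genes, of which 87.6% to 89.2% were uniquely placed and 5.59% to 6.68% lay in introns. Of 12 markers of colon epithelium, 3 (KRT8, KRT18 and KRT19) reached 1 TPM, the authors' unit of expression scaled for gene length and depth, in each library. CDX1 and CDX2, which define intestinal epithelium, had 0 reads in all 3 libraries, which allows up to 3 in each, EPCAM stayed between 0.656 and 0.742 TPM, and 4 of 8 mesenchymal markers reached 1 TPM in each. Of the epithelial list, the keratins alone were thus abundant. The mesenchymal filament gene VIM stood at 4016, 4130 and 3588 TPM at day 0, day 3 and day 5, above the sum of the whole epithelial list (1331, 1415 and 1298). VIM made up most of the mesenchymal list, which summed to 4077, 4182 and 3644 TPM. Without VIM, that list had 3945, 3567 and 4339 reads, of 106525, 117829 and 116798 with it. The liver gene SERPINA1 had 19332, 17422 and 20571 reads. Reads of the other 6 liver markers numbered 0, 20 and 434, and reads of 5 blood markers 5, 38 and 129. The part of these in any result was not tested.

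Throughout, levels of a gene across libraries are read counts scaled to a common library size by the trimmed mean of M values (TMM), called normalised CPM. A ratio is the log2 of that quantity in the later library over the earlier one. Intervals of 95% stand in square brackets and reflect counting error alone. They are exact, save those for the change of 1 gene against another between libraries, which are normal approximations on log counts. A gene is counted as higher or lower where the ratio is at least 1.2-fold (0.26 on the log2 scale) and its interval excludes no difference. A second count uses 1.5-fold. Counts over the 46 genes are read against the share of all 12593 compared genes that passed the same rule.

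In the day 3 library, transcripts of the channel's small subunits and of some subunits of TRAP, signal peptidase, OST and GET were higher than at day 0, all by less than 1.5-fold. Of the 46 genes, 9 were at least 1.2-fold higher (19.6%), where 9.98% of all compared genes were. These were SEC61B and SEC61G of the channel, SSR2 and SSR4 of TRAP, the peptidase subunits SEC11A and SEC11C, the OST subunits OST4 and KRTCAP2, and the ATPase ASNA1 of the GET route. TRAM2 was the 1 gene at least 1.2-fold lower, where 10.7% of all compared genes were lower. At 1.5-fold, 0 genes were higher and 0 lower, where 1.29% and 2.53% of all compared genes were. In all, 36 of the 46 ratios lay above 0, as did 52% of all compared ratios, and the median ratio was 0.13, beside 0.01 for all compared genes. With the authors' TPM in place of TMM-normalised reads, 0 genes were higher and 2 lower (5.07% and 20.8% of all genes), and the median was 0.01, beside -0.08 for all genes. With trends on gene length and GC content removed from the ratios, 6 were higher and 1 lower, where 6.46% and 9.27% of all genes were. The 6 were SSR2, SSR4, SEC11A, SEC11C, KRTCAP2 and HM13, of which HM13 was not among the 9. SEC61B, SEC61G, OST4 and ASNA1 no longer passed, and the 1 lower gene was EMC9 in place of TRAM2.

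In the day 5 library, SEC61G, SSR3 and OST4 stood farthest above day 0. At least 1.2-fold higher were 9 of 46 (19.6%), where 9.43% of all compared genes were, and 0 were lower, where 7.81% were. With DESeq2 size factors 5 were higher (10.9%, beside 8.66% of all genes). The 9 were SEC61B, SEC61G and TRAM1 at the channel, the TRAP subunit SSR3, the peptidase subunits SEC11A and SPCS3, the OST subunit OST4, EMC2, and the GET receptor subunit CAMLG. This comparison shares the day 0 library with the one before it. SEC61G was the 1 gene past 1.5-fold higher, where 1.76% of all compared genes were, and 0 were 1.5-fold lower, where 1.28% were. SEC61G lies so near 1.5-fold that 0 genes passed with DESeq2 size factors, the authors' TPM, exon reads or an interval excluding the fold. With the trends removed 0 genes passed as well, and the ratio of SEC61G was smaller, at 0.39. Of the 46 ratios, 33 lay above 0 (51.2% of all compared ratios did), with a median of 0.06 beside 0.01. With the trends on length and GC content removed, 3 remained higher, SEC61G, SSR3 and OST4, and the share of all genes was 6.78%. These 3 were the genes of the day 5 comparison that passed the 1.2-fold rule under each of 13 alternative settings (the TPM by fold alone, since they carry no interval).

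Between day 3 and day 5, 3 genes were at least 1.2-fold lower at day 5, where 10.9% of all compared genes were, and 0 were higher, where 12.4% were. The lower genes were SSR2 and SSR4 of TRAP and KRTCAP2 of OST. At 1.5-fold, 0 were higher and 0 lower, where 2.29% and 0.961% of all compared genes were. Of the 46 ratios, 18 lay above 0, as did 50.1% of all compared ratios, with a median of -0.02 beside 0.00. The direction of this comparison turns with the scaling. The authors' TPM gave 6 higher and 0 lower, where 23.1% and 5.66% of all genes were, and library totals without TMM gave 4 higher and 0 lower, where 19.7% and 5.64% were. Day 0 was the lowest of the 3 libraries for 30 of the 46 genes (65.2%), and for 32.7% of all compared genes. Day 3 was the highest for 26 genes (56.5%, beside 36.1%) and day 5 for 13 (28.3%, beside 34.3%). The comparisons share libraries, so these counts are not independent of each other.

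**Figure D1:**
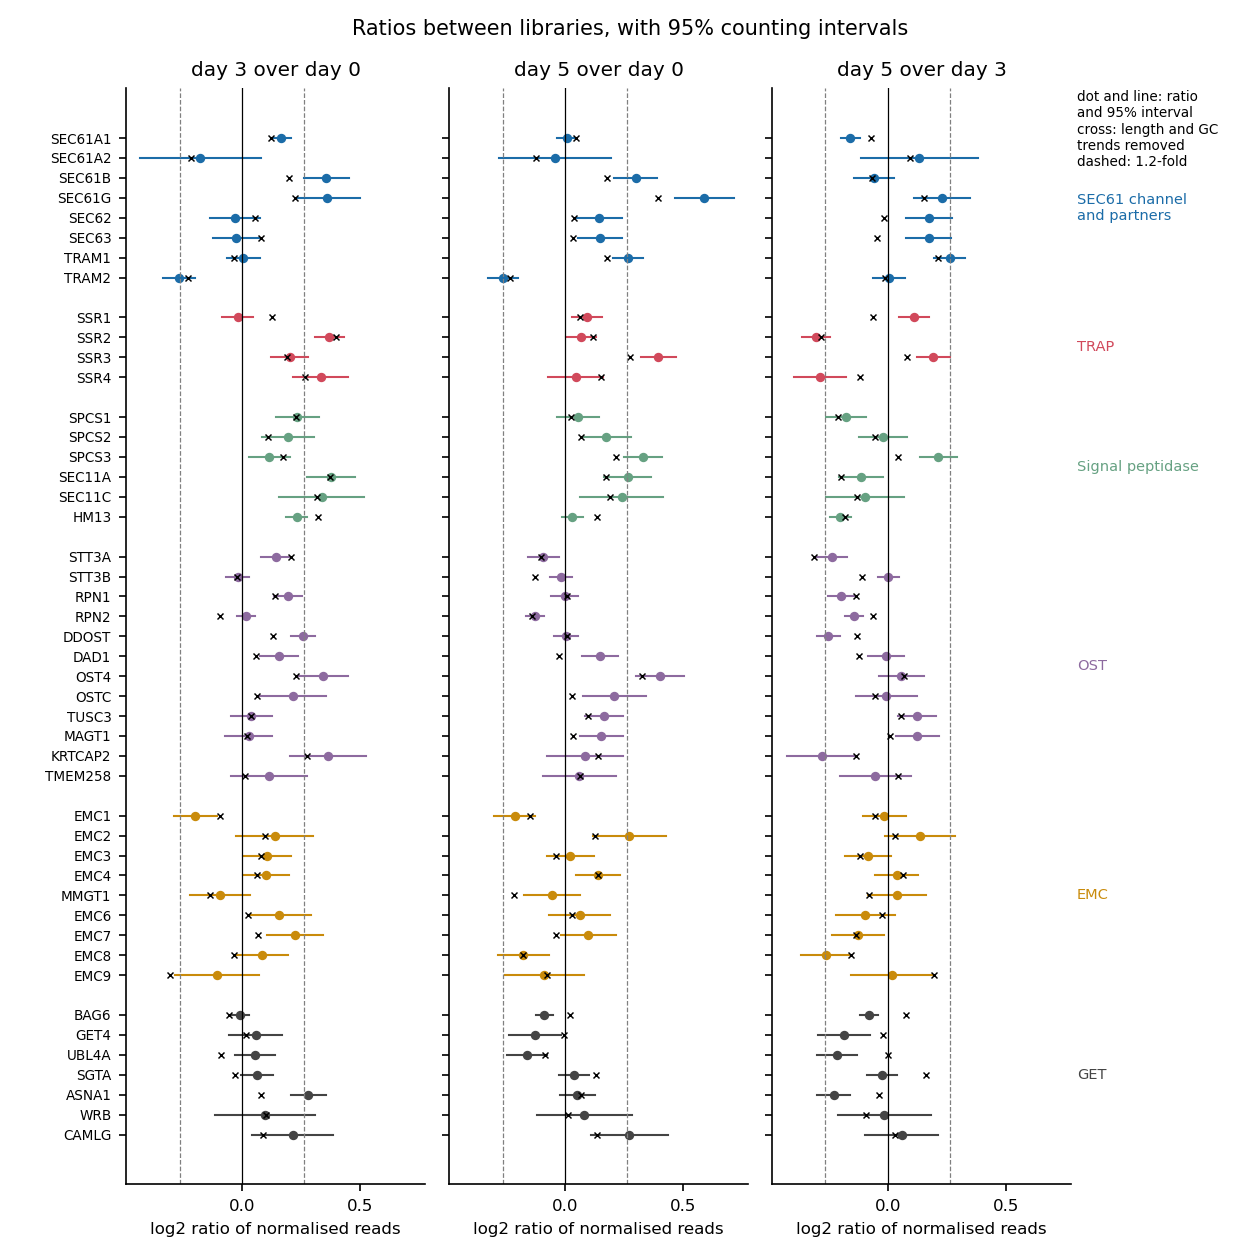
Log2 ratio of TMM-normalised reads (horizontal axis) for each of 46 genes in 3 comparisons, 1 library per day, as dots with 95% counting intervals, crosses for ratios with length and GC trends removed, and dashed lines at 1.2-fold. At day 5 over day 0, SEC61G lies farthest right at 0.59, and at day 5 over day 3 SSR2, SSR4 and KRTCAP2 lie left of the lower dashed line.

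At day 3 the median ratio over day 0 was 0.27 for TRAP, 0.23 for signal peptidase, 0.15 for OST, 0.10 for EMC, 0.06 for GET and -0.01 for the SEC61 channel and its partners. At day 5 it was 0.21 for signal peptidase, 0.15 for SEC61, 0.08 for TRAP, 0.07 for OST, 0.04 for GET and 0.02 for EMC. With the trends on length and GC content removed, the SEC61 medians were 0.07 and 0.04. Signal peptidase was the group in which all 6 measured genes were lowest at day 0, as were 32.7% of all compared genes. In it 5 of the 6 were highest at day 3, as were 5 of 7 in GET, 8 of 12 in OST and 36.1% of all compared genes. With the authors' TPM, SPCS3 had a day 3 ratio of -0.01, and 4 of the 6 were higher at day 5 than at day 3, so neither count held there. Nor did they with unique reads, where HM13 had a day 5 ratio of -0.01 and 2 of the 6 were higher at day 5 than at day 3. From day 3 to day 5 the SEC61 median was 0.15, and the others lay between -0.10 and -0.01. That SEC61 median became -0.01 with the trends removed, and with the authors' TPM all 6 group medians from day 3 to day 5 lay above 0, between 0.01 and 0.27, where the median of all genes was 0.09. With the authors' TPM, the EMC median at day 3 was -0.02 and the GET median -0.05.

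**Figure D2:**
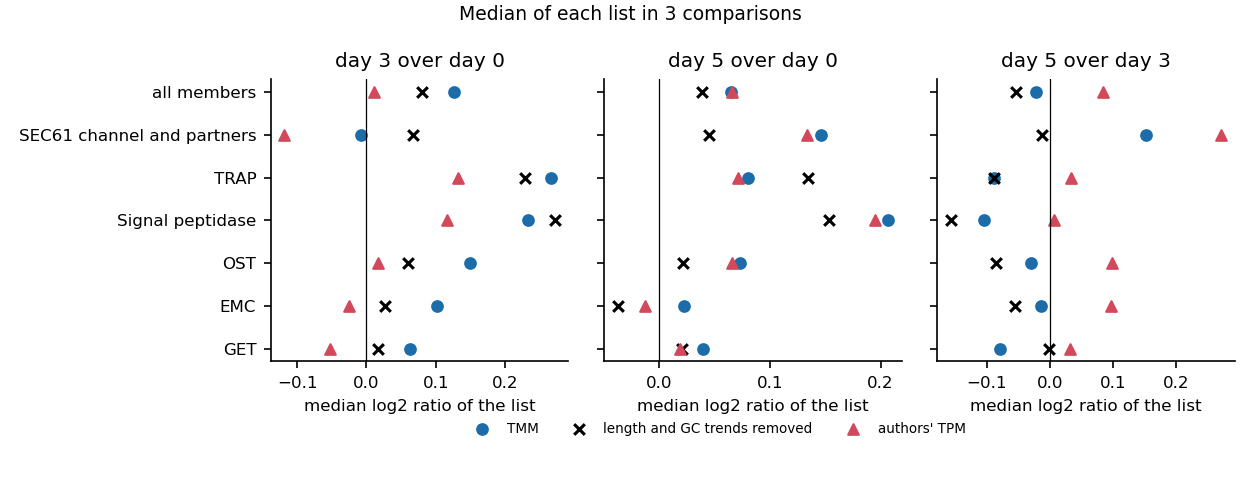
Median log2 ratio (horizontal axis) of all 46 measured genes and of each group in 3 comparisons, from TMM-normalised reads, from ratios with length and GC trends removed, and from the authors' TPM. TRAP and signal peptidase lie right of 0 at day 3 and at day 5 over day 0 under each of the 3, and from day 3 to day 5 the triangles of the TPM lie right of 0 for every group.

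Promoters were read because several of these genes are known targets of ER stress factors, whose binding motifs have been described. RefSeq promoters on GRCh38.p14, each 250 bases before to 50 bases after a listed start, were matched for 38 of the 47 genes, in 48 entries. The other 9 genes are TRAM1, SPCS1, HM13, STT3B, RPN1, TUSC3, EMC2, MMGT1 and GET4. Both strands were searched for 4 motifs of the ER stress and integrated stress responses: ERSE, ERSE-II, the unfolded protein response element UPRE (TGACGTGG) and an ATF4 element (TGATGNAA). The reverse complement of UPRE, CCACGTCA, begins with the CCACG that ends ERSE and ERSE-II, so such matches may overlap. Of the 38 genes, 3 held UPRE in any listed promoter (7.89%), beside 166 of 15843 protein-coding genes (1.05%). The other 3 motifs were matched in 0 of the 38, and in 0.133% (ERSE), 0.0947% (ERSE-II) and 3.6% (ATF4 element) of protein-coding genes.

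The 3 genes with UPRE were SEC62 (from -17 to -10 relative to the start), SSR3 (-41 to -34, in 1 of 3 listed promoters) and SSR4 (-129 to -122, in 1 of 2). For SSR3 and SSR4 the match was in the listed promoter farthest downstream, and positions are relative to its start. That promoter of SSR3 had 43.7% GC, beside 66% for each of its others. Which start was used in these cells was not tested. Each match was on the minus strand of the gene, so its letters read CCACGTCA along the gene. Below, the 150 bases before the listed start are given 5′ to 3′ along the gene for these 3 and for SEC61G, the gene with the highest ratio, whose promoter held 0 of the 4 motifs. Capitals mark the UPRE match. The windows are chr3:169966657-169966806 on the plus strand for SEC62, chr3:156554126-156554275 on the minus strand for SSR3, chrX:153794518-153794667 on the plus strand for SSR4 and chr7:54759212-54759361 on the minus strand for SEC61G.
SEC62: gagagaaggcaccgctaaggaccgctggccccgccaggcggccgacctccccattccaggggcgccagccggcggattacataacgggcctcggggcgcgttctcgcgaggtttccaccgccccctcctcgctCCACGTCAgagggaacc
SSR3: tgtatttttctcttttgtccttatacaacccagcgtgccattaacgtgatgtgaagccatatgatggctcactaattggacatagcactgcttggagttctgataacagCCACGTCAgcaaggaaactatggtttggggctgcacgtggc
SSR4: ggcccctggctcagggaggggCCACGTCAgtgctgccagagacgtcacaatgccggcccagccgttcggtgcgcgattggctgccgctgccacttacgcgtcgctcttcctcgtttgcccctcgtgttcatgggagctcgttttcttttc
SEC61G: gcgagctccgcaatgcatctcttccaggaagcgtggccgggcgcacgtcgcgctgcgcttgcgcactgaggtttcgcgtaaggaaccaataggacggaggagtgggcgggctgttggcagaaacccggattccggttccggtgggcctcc
A match describes these letters and was not tested as a site. The 3 genes did not move alike: the ratios at day 3 and day 5 over day 0 were -0.03 and 0.14 for SEC62, 0.20 and 0.39 for SSR3, and 0.33 and 0.04 for SSR4.

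Levels of different genes are compared per length, in the authors' TPM at day 0. RPN2, a core OST subunit, was the most abundant at 808.8 TPM, followed by DAD1 at 588.8, BAG6 at 430.5, DDOST at 422.8 and SEC61A1 at 384.5. At the lower end, SEC61A2, a paralog of the pore subunit, stood at 9.26 TPM, WRB of the GET receptor at 12.6, and SEC11C at 19.3. The TPM divides by the length of all exons of a gene, which for some genes is far longer than the principal coding transcript: 6.93 times for KRTCAP2, 6.4 times for SPCS1, 6.23 times for HM13 and 5.96 times for SSR2. Per length of the principal transcript, HM13 moved from rank 16 to rank 2 of 47 and SSR2 from rank 18 to rank 3, while RPN2 stayed at rank 1 and EMC10 at rank 47. Together the 47 genes took 0.573% of all gene reads at day 0, 0.590% at day 3 and 0.590% at day 5.

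**Figure D3:**
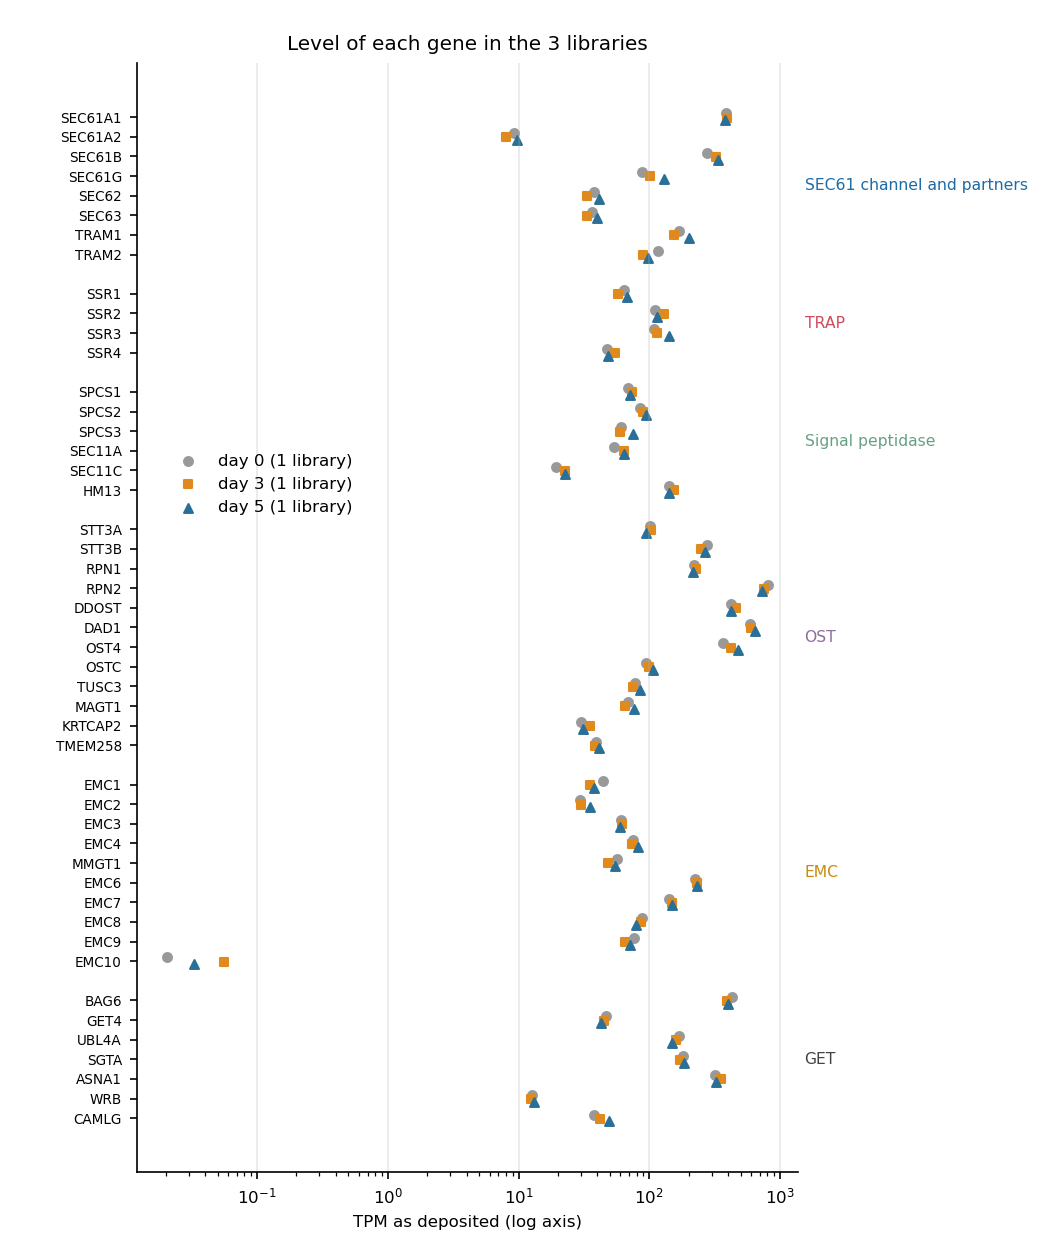
Level of each of the 47 genes in the authors' TPM (horizontal axis, log scale) in the day 0, day 3 and day 5 libraries, 1 marker per library, by group. All genes but EMC10 stand above 7 TPM in every library, and for most the 3 markers lie close together beside the range between genes.

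Within the SEC61 channel, the small subunits stood above day 0 at both times and the pore subunit did not do so at day 5. SEC61G encodes the small gamma subunit (ENSG00000132432, GRCh38 chr7:54752250-54759974, minus strand). It had 37.1, 47.6 and 55.8 normalised CPM at day 0, day 3 and day 5, from 801, 1017 and 1464 reads. Each library was thus higher than the one before it. The log2 ratio was 0.36 [0.23 to 0.50] at day 3 and 0.59 [0.46 to 0.72] at day 5, or 1.504-fold [1.379 to 1.642]. Across the 13 alternative settings the day 5 ratio lay between 0.39, with trends removed, and 0.60.

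SEC61B, the other small subunit (ENSG00000106803, chr9:99222064-99230615, plus strand), had 77.0, 98.5 and 94.7 normalised CPM. Its day 3 and day 5 libraries were both above day 0 and close to each other, with ratios of 0.36 [0.26 to 0.45] and 0.30 [0.21 to 0.39]. With trends removed these became 0.20 and 0.18, below the 1.2-fold rule. SEC61A1, which forms the pore, had 416.8, 467.4 and 419.0 normalised CPM, with a day 3 ratio of 0.17 and a day 5 ratio of 0.01. Only 43.6% of its reads were uniquely placed, it overlaps RUVBL1 on the other strand, and unique reads gave 0.04 at day 3. Set against SEC61A1 within each library, SEC61G was 0.58 higher on the log2 scale at day 5 than at day 0 [0.45 to 0.71], the same from all reads as from unique reads. The order of the 3 core subunits by day 5 ratio was thus SEC61G, SEC61B, SEC61A1, and SEC61G against SEC61B had moved by 0.29 [0.14 to 0.44].

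SEC62 and SEC63, which help proteins that enter after their synthesis is complete, stood at 69.0, 67.6 and 76.2 and at 76.3, 75.1 and 84.6 normalised CPM. Both were close to day 0 at day 3 and higher at day 5, with day 5 ratios of 0.14 [0.05 to 0.24] and 0.15 [0.06 to 0.24], below 1.2-fold. Across the alternative settings these day 5 ratios went down to 0.04 for both. The ratios from day 3 to day 5 went down to -0.01 for SEC62 and -0.05 for SEC63. TRAM1, a membrane protein beside the channel that contacts entering chains, had 151.9, 152.5 and 182.7 normalised CPM. Its day 5 library stood apart from the other 2, with a ratio of 0.27 [0.20 to 0.33] over day 0 and 0.26 [0.20 to 0.33] over day 3. TRAM2, its paralog, had 189.2, 157.4 and 157.9 normalised CPM and ratios of -0.26 [-0.33 to -0.20] and -0.26 [-0.32 to -0.20]. TRAM2 lies just outside the 1.2-fold rule at day 5 and just inside it at day 3. Only 13.9% of its reads were uniquely placed, so its level is uncertain. SEC61A2 had 273, 239 and 322 reads, its intervals held 0 in all 3 comparisons, and 28.0% to 34.4% of its reads were intronic.

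Among the TRAP subunits, SSR2 and SSR4 stood highest at day 3. SSR2, the beta subunit (ENSG00000163479, chr1:156009048-156020959, minus strand), had 168.6, 217.8 and 176.5 normalised CPM. SSR4, the delta subunit (ENSG00000180879, chrX:153793516-153798505, plus strand), had 50.1, 63.0 and 51.7. For both, day 3 stood above day 0 and day 5, which were close together: day 3 ratios of 0.37 [0.31 to 0.43] and 0.33 [0.22 to 0.45], day 5 ratios of 0.07 and 0.04. From day 3 to day 5 the ratios were -0.30 [-0.36 to -0.24] for SSR2 and -0.29 [-0.40 to -0.18] for SSR4, which became -0.28 and -0.12 with trends removed.

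SSR3, the gamma subunit (ENSG00000114850, chr3:156540140-156555184, minus strand), had 117.5, 135.2 and 154.5 normalised CPM. Each library was higher than the one before it, with ratios over day 0 of 0.20 [0.12 to 0.28] and 0.39 [0.32 to 0.47]. Across the alternatives the day 5 ratio lay between 0.27 and 0.41. SSR1, the alpha subunit, had 168.5, 166.3 and 179.6 normalised CPM, with ratios of -0.02 and 0.09, which became 0.13 and 0.07 with trends removed, and 49.0% of its reads were uniquely placed. Within the libraries, SSR3 against SSR2 stood 0.50 higher on the log2 scale at day 5 than at day 3 [0.40 to 0.59]. These are the highest and the lowest TRAP ratio from day 3 to day 5, so the interval is no test. Median GC content of the transcripts was 40.9% for SSR3 and 44.1% for SSR1, beside 52.1% for SSR2 and 59.9% for SSR4, and ratios from day 3 to day 5 were lower at higher GC content over all genes.

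Signal peptidase cleaves targeting peptides in the ER lumen, and SEC11A and SEC11C are its alternative catalytic subunits. SEC11A (ENSG00000140612, chr15:84669538-84716716, minus strand) had 63.5, 82.4 and 76.3 normalised CPM, and SEC11C had 21.1, 26.6 and 24.9. Both were lowest at day 0 and highest at day 3, with day 3 ratios of 0.38 [0.27 to 0.48] and 0.34 [0.16 to 0.52]. At day 5 the ratios were 0.26 [0.16 to 0.36] and 0.24 [0.06 to 0.42], of which only that of SEC11A passed the 1.2-fold rule, by a small margin (1.201-fold). SEC11A, with SSR2, passed the rule at day 3 in 12 of 13 alternatives, the exception being the authors' TPM, which gave 0.25 for SEC11A and 0.24 for SSR2.

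Of the subunits without a catalytic site, SPCS3, which the enzyme needs for activity, had 95.2, 103.2 and 119.6 normalised CPM. It was highest at day 5, with ratios of 0.12 and 0.33 [0.25 to 0.41], and the day 5 ratio was 0.22 with trends removed. SPCS1 had 84.8, 99.8 and 88.2, and SPCS2 had 59.9, 68.5 and 67.6. Their day 3 ratios were 0.23 [0.14 to 0.33] and 0.19 [0.09 to 0.30], below 1.2-fold. HM13, the signal peptide peptidase, which cuts the removed peptides within the membrane, had 346.1, 406.3 and 353.7, with a day 3 ratio of 0.23 [0.19 to 0.28] and a day 5 ratio of 0.03. With trends removed the day 3 ratio of HM13 was 0.32, past the rule. Summed over the 6 genes, the share of all gene reads was 0.0680% at day 0, 0.0761% at day 3 and 0.0744% at day 5.

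OST exists in alternative forms built on the catalytic subunits STT3A, which acts on chains as they enter, and STT3B, which acts later on sites that were missed. KRTCAP2 and OSTC belong to the STT3A form, and the thiol oxidoreductases MAGT1 and TUSC3 to the STT3B form. STT3A had 172.4, 190.5 and 161.9 normalised CPM, KRTCAP2 26.8, 34.5 and 28.4, and OSTC 35.7, 41.5 and 41.3. All 3 were above day 0 at day 3, with ratios of 0.14 [0.08 to 0.21], 0.36 [0.20 to 0.52] and 0.22 [0.07 to 0.36]. STT3B had 325.2, 321.3 and 321.9, MAGT1 78.1, 79.7 and 86.9, and TUSC3 101.3, 104.1 and 113.5. Their day 3 ratios were -0.02, 0.03 and 0.04, and the 3 intervals held 0. Day 3 ratios thus ran from 0.14 to 0.36 for the STT3A form and from -0.02 to 0.04 for the STT3B form. With trends removed they ran from 0.06 to 0.28 and from -0.02 to 0.04. With the authors' TPM they ran from 0.01 to 0.24 and from -0.14 to -0.04. These scalings use the same libraries and are not independent. How often other sets of 3 genes lie apart in this way was not counted. Over all 12 OST genes, 11 day 3 ratios lay above 0, with a median of 0.15. Subunits common to both forms were among the 11, so a day 3 ratio above 0 was not particular to the STT3A form.

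From day 3 to day 5 the ratios were -0.23, -0.28 and -0.01 for STT3A, KRTCAP2 and OSTC, and 0.00, 0.12 and 0.12 for STT3B, MAGT1 and TUSC3. With trends removed, OSTC (-0.05) lay above STT3B (-0.11), so the forms then overlapped. Over day 0 they overlapped at day 5. The split by form was made after the values had been seen and is a description. Of KRTCAP2 reads, 76.4% were uniquely placed.

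Among the OST subunits common to both forms, OST4 stood apart. OST4 encodes a very small membrane protein (ENSG00000228474, chr2:27070472-27071773, minus strand). It had 59.7, 75.7 and 78.8 normalised CPM, from 1290, 1616 and 2067 reads, of which 0 were intronic in each library, which allows an intronic share of up to 0.233%, 0.186% and 0.145%. Both later libraries were above day 0, with ratios of 0.34 [0.24 to 0.45] and 0.40 [0.30 to 0.50], and the day 5 ratio lay between 0.33 and 0.42 across the alternatives. AGBL5 overlaps OST4 on the other strand and had 994 to 1104 reads.

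The large subunits RPN1, RPN2 and DDOST were close to day 0 or below it at day 5. RPN1, which presents some substrates to the enzyme, had 200.3, 229.1 and 200.1 normalised CPM, and DDOST 264.4, 315.9 and 265.3, so both stood highest at day 3 (0.19 and 0.26) and at their day 0 level at day 5 (-0.00 and 0.01). The DDOST ratio at day 3, 1.195-fold, lay just below the rule. RPN2 had 530.6, 536.6 and 486.1, with a day 5 ratio of -0.13 [-0.16 to -0.09]. OST4 against RPN2 had moved by 0.53 at day 5 [0.42 to 0.63]. The pair joins the highest and the lowest OST ratio at day 5, so its interval is no test. DAD1, whose loss leads to cell death, had ratios of 0.16 and 0.15, and TMEM258 0.11 and 0.06.

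EMC inserts tail anchors and some first membrane segments. EMC3, which carries the insertase fold, had 69.5, 74.8 and 70.6 normalised CPM, with ratios of 0.11 and 0.02. Of 9 measured genes, 0 passed 1.2-fold at day 3 in either direction (9.98% of all genes were higher and 10.7% lower), and at day 5 EMC2 alone was higher (11.1%, beside 9.43%). EMC2, a scaffold on the cytosolic side, had 27.5, 30.3 and 33.3 normalised CPM, with a day 5 ratio of 0.27 [0.12 to 0.43] that was 0.13 with trends removed. EMC1, the large lumenal subunit, was lower at both times, with 98.9, 86.3 and 85.4 normalised CPM and ratios of -0.20 [-0.29 to -0.11] and -0.21 [-0.30 to -0.12]. With trends removed these were -0.09 and -0.15. EMC1 overlaps MRTO4 on the other strand, and 75.3% of its reads were uniquely placed. Unique reads gave -0.26 and -0.29 for EMC1. EMC2 against EMC1, the highest and the lowest measured EMC ratio at day 5, had moved by 0.48 [0.31 to 0.66]. Its interval is therefore no test.

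Ratios of the other EMC subunits ran at day 3 from -0.10 for EMC9 to 0.22 for EMC7, and at day 5 from -0.17 for EMC8 to 0.14 for EMC4, with EMC6 and MMGT1, the subunit also called EMC5, in between. With trends removed, EMC9 had -0.30 at day 3. It was then the 1 EMC gene at least 1.2-fold lower, where 9.27% of all genes were. EMC8 overlaps COX4I1 on the other strand, and 62.6% of its reads were uniquely placed, as were 63.3% of those of EMC6. EMC10, the lumenal subunit (ENSG00000161671, chr19:50476400-50490870, plus strand), had 1, 3 and 3 reads, at or below the level of 3 reads (0.139, 0.140 and 0.114 normalised CPM) under which no fold is given. Its TPM was 0.0203, 0.0562 and 0.0331. The neighbouring genes JOSD2 and POLD1 had 320 to 394 and 2925 to 3007 reads, and FAM71E1, which overlaps the start of EMC10 on the other strand, had 0.

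GET takes over tail-anchored proteins in the cytosol. SGTA receives them first and had 160.7, 168.0 and 165.2 normalised CPM, with ratios of 0.06 and 0.04. BAG6, GET4 and UBL4A pass them on. BAG6 had 527.9, 525.3 and 497.1, with a day 5 ratio of -0.09 [-0.12 to -0.05], and UBL4A had 102.5, 106.4 and 91.6, with -0.16 [-0.25 to -0.08]. GET4, which overlaps SUN1 on the same strand and had 21.5% of its reads uniquely placed, had -0.13. With trends removed the day 5 ratios were 0.02 for BAG6, -0.08 for UBL4A and -0.00 for GET4. Unique reads gave GET4 -0.36 at day 5 over day 0 and -0.34 from day 3 to day 5, both past the 1.2-fold rule. Its ratio thus depends on how shared reads are counted.

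ASNA1, the ATPase that carries the tail anchor to the membrane, had 121.8, 148.0 and 126.3 normalised CPM. Its day 3 library stood above the others, with a ratio of 0.28 [0.21 to 0.36] that was 0.08 with trends removed. CAMLG and WRB form the receptor in the ER membrane. CAMLG had 24.7, 28.6 and 29.8 normalised CPM, with 15.7% to 22.3% of its reads in introns. Its day 5 ratio of 0.27 [0.11 to 0.43] was 0.13 with trends removed, below the 1.2-fold rule. WRB had 16.99, 18.17 and 17.98, with ratios of 0.10 and 0.08 whose intervals held 0. The ratio of CAMLG to WRB moved by 0.19 at day 5, within counting error [-0.06 to 0.44].

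Pairs of paralogs were also compared within each library, where scaling between libraries plays no part. STT3A stood at 0.370 of STT3B in TPM at day 0 [0.355 to 0.385], 0.410 at day 3 [0.394 to 0.426] and 0.352 at day 5 [0.339 to 0.365]. The day 3 interval lay apart from the others. MAGT1 against TUSC3 was 0.888, 0.862 and 0.892, and SEC11A against SEC11C 2.78, 2.82 and 2.82, with intervals that overlapped across libraries. TRAM1 against TRAM2 was 1.43, 1.72 and 2.07, with 3 intervals that lay apart, but 9.92, 13.8 and 14.1 from unique reads. For SEC61A1 over SEC61A2, which was 41.5, 49.4 and 39.1, and for EMC8 over EMC9, which was 1.16, 1.34 and 1.11, unique reads gave 13.01 to 15.1 and 0.708 to 0.892. The size of these last 3 ratios thus depends on how shared reads are counted.

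Across 46 genes, Spearman's rho between transcript GC content and ratio was -0.69 from day 3 to day 5 and -0.54 for day 5 over day 0, and across all 12583 compared genes with a GC content it was -0.52 and -0.42. At day 3 over day 0 the larger relation was with exon length (-0.32 across 46 genes, -0.37 across 12593), while from day 3 to day 5 rho with exon length was 0.06 and 0.25. These are descriptions over genes that share libraries, and genes are not replicates. Median GC content was 45.0% for the SEC61 group, 58.9% for GET and 49.4% for all compared genes. SEC61G, SSR3 and SPCS3, with 40.1%, 40.9% and 39.8%, lie where the median of all genes is itself above 0 at day 5. OST4, with 55.3%, lies where it is below 0, and removal of both trends took its day 5 ratio from 0.40 to 0.33. The part of library composition in the ratios of single genes was not tested beyond the removal of these trends.

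**Figure D4:**
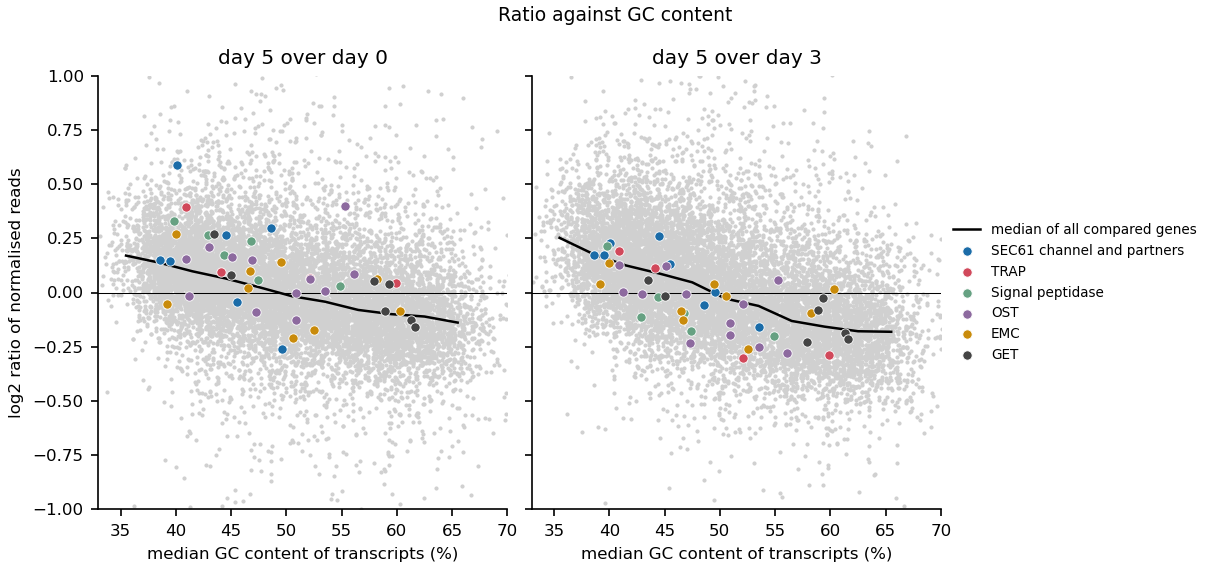
Log2 ratio of normalised reads (vertical axis) against median GC content of each gene's transcripts (horizontal axis, %) for day 5 over day 0 and day 5 over day 3, with all compared genes in grey, their running median as a line and 46 translocation genes in colour by group; points beyond the axes are not drawn. The line falls from left to right in both panels, most coloured points fall with it, and SEC61G and OST4 lie well above it at day 5 over day 0.

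Lists of genes that act before, beside and for these machines were also counted. The signal recognition particle and its receptor, which bring ribosomes to the channel, had 3 of 8 genes at least 1.2-fold higher at day 3 (beside 9.98% of all genes) and 1 at day 5 (beside 9.43%), with 0 lower. At day 3 the count was 1 with library totals or with trends removed, and 0 with the authors' TPM. Their medians were 0.16 and 0.08. At day 5 SRP19 (0.29, with 17.6% of reads uniquely placed), SRPRB (0.25) and SRP54 (0.22) were highest, and SRP14 (-0.06), SRPRA (-0.05) and SRP68 (0.01) lowest. The multipass translocon, which assists proteins with many membrane segments, with the SND factor TMEM208, had 10 genes in the tables. Of these 1 was higher at day 3 (10%, beside 9.98% of all genes) and 0 at day 5 (beside 9.43%), with medians of 0.11 and -0.05. Lower at day 5, beside 7.81% of all genes, were 2, NOMO1 (-0.32) and NOMO2 (-0.31), near-identical copies with 57.9% and 30.5% of reads uniquely placed. NCLN, their partner, had -0.20, and TMCO1 (0.23), CCDC47 (0.14) and C20orf24 (0.09) were highest.

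Lipid-linked oligosaccharide synthesis builds the sugar chain that OST transfers. Of its 24 genes 7 were at least 1.2-fold higher at day 3 and 5 at day 5, with 0 lower at either time, beside 9.98% and 9.43% of all genes higher, and the medians were 0.18 and 0.09. The authors' TPM gave 3 higher and 1 lower at day 3, library totals gave 4 higher at day 3, and trends removed gave 2 higher at day 5. The highest at day 5 were ALG6 (0.35 [0.11 to 0.60]), ALG13 (0.32 [0.16 to 0.48]) and DPM1 (0.32 [0.23 to 0.40]), and the lowest DHDDS (-0.16), MPDU1 (-0.15) and ALG14 (-0.13). With trends removed, DPM1 had 0.05. For reference, HSPA5 had 1071, 1764 and 1453 normalised CPM, with ratios of 0.72 and 0.44, larger at day 3 than that of any of the 46 translocation genes.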

How the data were processed

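RNA from 3 samples was made into libraries with a SMARTer mRNA-seq kit, per the labels' protocols. The deposited tables hold, per the file headers, the authors' read counts for every gene (total, unique, exon and intron reads) and their TPM. Aligner, counter and use of strand were not given in the sources used here. A mouse build, mm10, is named in the submitters' processing notes, while the identifiers are human. Of 57980 genes matched to GENCODE 29, 56588 (97.6%) have the same ends on GRCh38, which is the build of the coordinates printed. A further table with 3 sample columns was not used.

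With edgeR 4.0.16 (R 4.3.3), total gene reads were scaled by TMM (factors 1.01, 0.968 and 1.02). A prior count of 0.5 entered the log2 ratios, whose 95% intervals are exact conditional (Clopper-Pearson) ones. The change of 1 gene against another between libraries used no prior count, and its 95% interval is a normal approximation on log counts. Several of these pairs join the highest and the lowest ratio of a group: OST4 with RPN2, EMC2 with EMC1 and SSR3 with SSR2. SEC61G with SEC61A1 does so for the core channel subunits at day 5. Intervals of such pairs describe extremes and are no test. Molecular identifiers are not mentioned in the labels, so copies of the same molecule may have been counted as separate reads. The intervals and the floor of 3 reads take reads as independent counts, and may understate even the counting error. They hold no other source of error. The comparison took genes averaging 50 reads or more. With 1 library per group no test was fitted. Lowess trends (span 0.3, 3 rounds) on exon length and transcript GC content were computed with statsmodels 0.14.6 in Python 3.11.15, with pandas 2.3.3, numpy 2.4.6 and scipy 1.17.1. The ratio, interval and trend steps were run on simulated reads that held counting error alone, as the intervals assume. That run cannot speak to spread between cultures, copied molecules or shared reads.

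The genes named are the 47, SYVN1, HSPA5 and, from each of 3 further lists, the 3 highest and 3 lowest ratios at day 5 over day 0. The genes and lists were chosen with earlier results of these data known. Scaling was varied by using library totals, size factors from DESeq2 1.42.0 and the authors' TPM plus 0.5. Reads were varied by taking unique or exon reads, and the prior count by raising it to 5. The read minimum was set to 10, to 200 or left out. Other alternatives were an interval excluding the fold itself, the trends removed, protein-coding genes, genes with at least 90% uniquely placed reads and, for paralogs, unique reads per exon length. Levels per length of the principal coding transcript were added after the data had been seen.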

Additional observations from a re-analysis of the deposited data

How the results depend on the processing

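Of 46 genes, 31 kept the sign of their ratio in every alternative that gave a value at day 3 over day 0, 36 at day 5 over day 0 and 28 at day 5 over day 3. The cause of the changes below was not tested. With the authors' TPM, genes at least 1.2-fold higher numbered 0 at day 3, and 6 from day 3 to day 5. Genes lower numbered 2 at day 3, 1 at day 5 and 0 from day 3 to day 5. The TPM medians of all 46 were 0.0116 at day 3 and 0.0845 from day 3 to day 5, that of EMC at day 3 was -0.0249 and that of signal peptidase from day 3 to day 5 was 0.0061. With an interval that excludes the fold itself, 2 were higher and 0 lower at day 3 (2.46% of all genes were higher), 3 higher at day 5 (beside 2.5%) and 0 lower from day 3 to day 5. DESeq2 size factors gave 0 lower at day 3, 5 higher (10.9%, beside 8.66% of all genes) and 1 lower at day 5, and 5 lower from day 3 to day 5. Library totals gave 2 lower at day 3, and 4 higher and 0 lower from day 3 to day 5. Unique reads gave 2 lower at day 5, and 1 higher and 5 lower from day 3 to day 5, and exon reads gave 1 lower at day 5 and 1 higher from day 3 to day 5. Genes with at least 90% uniquely placed reads gave 0 lower at day 3. With trends removed, 3 were higher at day 5 and the SEC61 median from day 3 to day 5 was -0.0130. The 1.5-fold count at day 5 was 0 with DESeq2 size factors, the authors' TPM, exon reads, an interval excluding the fold and trends removed. SEC61G, the gene counted, lies at 1.504-fold, and its log2 ratio was 0.39 with trends removed. Unique reads per exon length gave, at day 0, day 3 and day 5, 13.01, 15.1 and 13.01 for SEC61A1 to SEC61A2, 9.923, 13.81 and 14.1 for TRAM1 to TRAM2, and 0.7162, 0.8922 and 0.7082 for EMC8 to EMC9. They gave 0.8238 at day 0 and 0.8173 at day 5 for MAGT1 to TUSC3. Levels per principal transcript, an alternative added after the data had been seen, differed from the TPM for 44 of 47 genes by more than counting error. No paired analysis was possible because there was 1 library at each time. Differences between cultures were not measured, and intervals for genes with few reads, such as SEC61A2 and WRB, do not exclude changes near 1.2-fold.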
